A study of Mus musculus with 99 samples.

Results

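Transcripts that encode the plasma proteins of liver and enzymes that handle amino acid nitrogen were followed across mouse hearts. The set held 10 genes by name: Alb, Ttr and Hpx, Apoa1, Apoa2 and Apoc3, Fgb, Cps1 and Arg1, and Tat. All of their probe sets on the array were taken, 12 of the 22327 that are not controls, with a pair each for Apoa1 and Ttr and a single one for every other gene. Hearts of male mice on a chow diet were profiled on Affymetrix HT_MG-430A arrays, with 1 array for each of 99 strains. The groups were 11 BXH, 30 BXD, 15 AXB and 13 BXA recombinant inbred strains, 28 classical inbred strains, B6cC3-1/KccJ and the wild-derived CAST/EiJ. Among the BXD strains, BXD24/TyJ-Cep290<rd16>/J and BXD29-Tlr4<lps-2J>/J also carry the mutant alleles of Cep290 and Tlr4 that their names give. Each recombinant inbred strain carries a fixed mixture of the genomes of a pair of parents: C57BL/6J and C3H/HeJ for BXH, C57BL/6J and DBA/2J for BXD, and C57BL/6J and A/J for AXB and BXA, which differ in the direction of the cross. The labels give no treatment and do not say whether an array holds 1 mouse or a pool. The protocol gives 16 weeks of age for all mice. The age label of the arrays instead runs from 16 to 113 weeks, rising with the order of the samples, and was not used. It is higher on all BXD, AXB and BXA arrays than on those of the other groups. No strain had a second array, so the p-values reflect variation between strains together with any technical variation.

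Hepatocytes make most of the protein of blood plasma. Albumin carries fatty acids and hormones, apolipoproteins are the protein part of the particles that move lipids, and fibrinogen forms the clot. The urea cycle, which turns ammonia from amino acid breakdown into urea, runs as a whole in liver. Their genes share promoter-binding factors of hepatocytes such as HNF1, HNF4 and C/EBP.

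Promoters of 6 of the 10 genes were taken from the RefSeq promoter table of build GRCm38.p6, 7 in all, since Apoa2 has a pair. Those of Ttr, Apoc3, Cps1 and Arg1 were not searched, so the windows do not cover the whole set. Windows of 250 bases up to the base before the transcript start were searched for GTTAAT, the core letters of the HNF1 site, on both strands, where the other strand reads ATTAAC. The letters were present in 2 of the 7 windows and in 6.43% of the 32851 promoters of the table that were searched. Alb and Fgb are shown because their windows hold these letters, in capitals, and Apoa1 because it was low in BXD12/TyJ for the amount of Alb there, and Tat because it stood apart in CAST/EiJ. All are written from 5′ to 3′ on the strand of the gene.
Alb (GRCm38.p6, chr5:90460620-90460869, plus strand): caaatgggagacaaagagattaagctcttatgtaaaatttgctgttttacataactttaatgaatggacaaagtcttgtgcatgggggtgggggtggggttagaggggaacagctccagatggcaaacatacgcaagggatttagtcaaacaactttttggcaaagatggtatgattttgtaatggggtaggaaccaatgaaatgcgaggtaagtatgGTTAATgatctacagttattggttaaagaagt
Fgb (GRCm38.p6, chr3:83049864-83050113, minus strand): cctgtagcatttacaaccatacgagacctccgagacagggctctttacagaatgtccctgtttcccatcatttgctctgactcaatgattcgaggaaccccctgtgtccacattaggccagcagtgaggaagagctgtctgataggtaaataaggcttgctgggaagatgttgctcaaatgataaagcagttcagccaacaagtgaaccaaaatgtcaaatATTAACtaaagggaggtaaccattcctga
Apoa1 (GRCm38.p6, chr9:46228380-46228629, plus strand): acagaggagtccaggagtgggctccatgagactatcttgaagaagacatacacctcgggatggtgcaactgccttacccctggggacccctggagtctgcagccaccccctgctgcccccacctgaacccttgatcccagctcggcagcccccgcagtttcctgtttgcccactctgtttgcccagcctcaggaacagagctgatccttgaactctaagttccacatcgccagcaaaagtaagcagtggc
Tat (GRCm38.p6, chr8:109990186-109990435, plus strand): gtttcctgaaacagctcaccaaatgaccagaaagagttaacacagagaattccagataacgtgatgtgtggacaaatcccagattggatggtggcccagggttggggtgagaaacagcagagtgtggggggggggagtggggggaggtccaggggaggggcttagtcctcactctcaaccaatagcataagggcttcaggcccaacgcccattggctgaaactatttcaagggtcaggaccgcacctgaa
The first base of the motif lies 32 bases before the start of Alb, on the strand of the gene, and 29 bases before the start of Fgb, where it is read on the other strand. The windows of Apoa1, Tat, Hpx and Apoa2 do not hold these 6 letters. A match in a window is a description of sequence and is no measure of binding.

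Values are log2 units as deposited. The deviation of a gene on an array is its value minus the median of that probe set over the 99 arrays, and the mean deviation of an array averages the 10 genes, with the probe set of wider range for Apoa1 and Ttr. An array is said to carry the transcripts where the mean deviation is over 2 log2 units, which is 4 times the median array on a linear scale. Array medians ran from 3.97 to 4.07 and values near 3 lie close to the floor of the array, so the number of arrays and this floor limit the precision. Heart markers were present on every array. Myl2, the ventricular myosin light chain, lay between 13.39 and 13.65 on all arrays and between 13.39 and 13.64 on those that carried the transcripts. These values lie near 13.695, the highest of any probe set, so their narrow range does not show equal amounts of heart RNA. CAST/EiJ had the lowest Myl2 and also the lowest Myl3, at 11.41 against a median of 12.04. Over 9 cardiac genes its mean deviation was -0.21. The Gapdh controls, read at the 3′ and at the 5′ end as a measure of RNA integrity, differed by 3′ minus 5′ values from -0.45 to -0.10 on the carrying arrays and from -0.47 to -0.07 over all. The CAST/EiJ array had the lowest median correlation with the other arrays, 0.937, and AXB19/PgnJ the second lowest, 0.965. In a whole heart, fewer cells of a type and less RNA per cell cannot be told apart.

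Liver transcripts were carried by 12 of the 99 hearts, in graded amounts that spanned most of the range of the array. CAST/EiJ stood highest with a mean deviation of 7.90. BXD12/TyJ followed at 6.03, BXD42/TyJ at 5.77, AXB13/PgnJ at 5.47, BXA8/PgnJ at 5.44, BXA16/PgnJ at 5.01 and AXB10/PgnJ at 4.99. Lower levels were seen in BXA13/PgnJ at 3.23, BXH14/TyJ at 2.85, AXB19/PgnJ at 2.34, AXB4/PgnJ at 2.32 and BXD1/TyJ at 2.15. The values fall off without a gap at the level chosen: BXA14/PgnJ, BXD13/TyJ and AXB19a/PgnJ lay just under it at 1.90, 1.81 and 1.56. A level of 1 log2 unit took in 23 arrays.

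**Figure D1:**
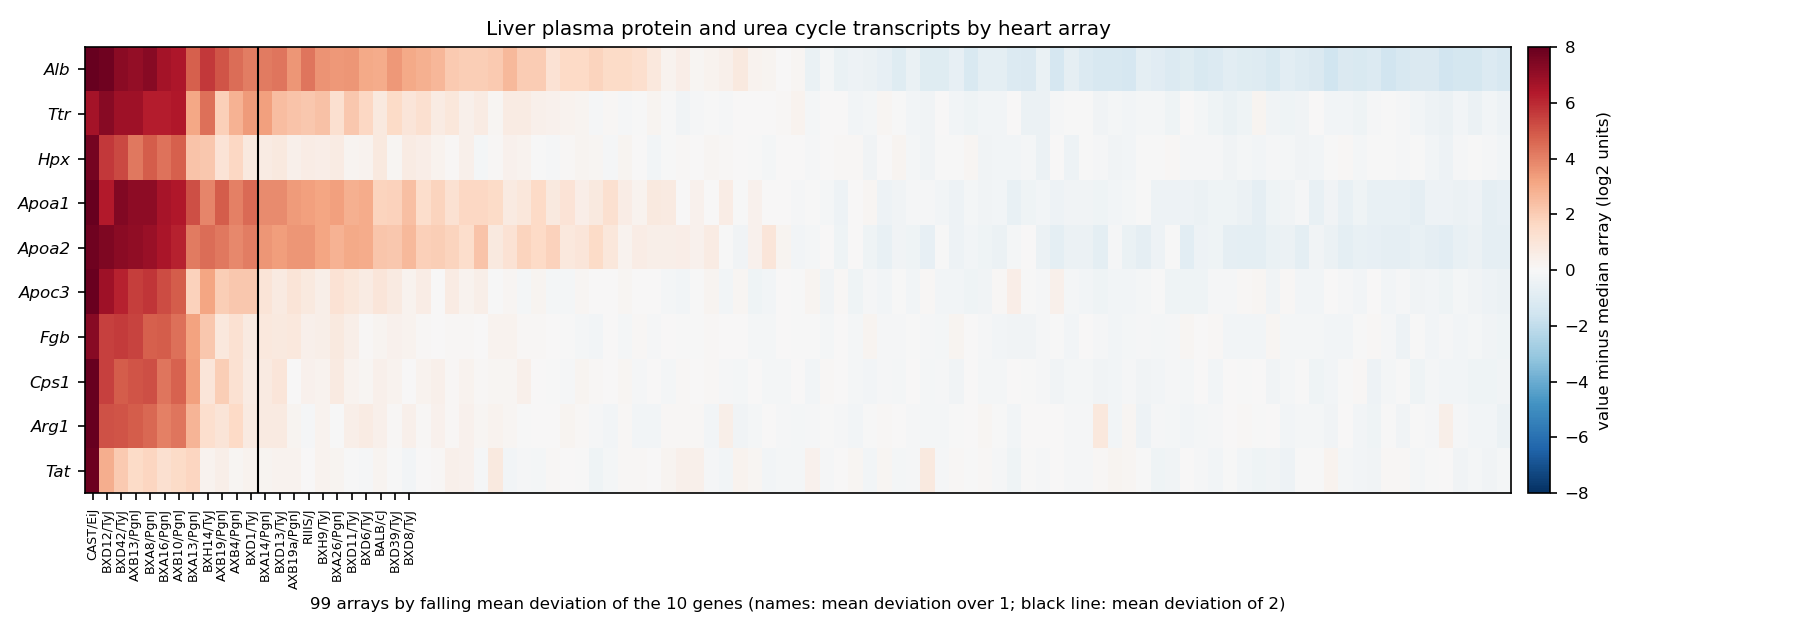
Deviation of each of the 10 genes (rows) from its median on all 99 arrays (columns, ordered by falling mean deviation), in log2 units by colour. The 12 arrays left of the line have a mean deviation over 2; Alb, Apoa1 and Apoa2 stay red furthest to the right, and Tat is dark red on the CAST/EiJ array alone.

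The carrying arrays were spread over the panels. They were 1 of 11 in BXH, 3 of 30 in BXD, 4 of 15 in AXB, 3 of 13 in BXA, 0 of 28 in the classical strains and the CAST/EiJ array itself, while B6cC3-1/KccJ had a mean deviation of -0.44. The highest classical strain was RIIIS/J at 1.53. The array titles are bare numbers, unexplained in the labels, and they follow the panels: BXH, classical, B6cC3-1/KccJ and CAST/EiJ titles run from 3 to 456, and BXD, AXB and BXA titles from 473 to 683. Of the arrays with the lower titles 2 of 41 carried the transcripts, against 10 of 58 with the higher ones, so panel and title range cannot be told apart here.

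Alb, which encodes serum albumin, had the widest range of the set. It reached 13.09 in CAST/EiJ and lay at 3.00 in its lowest strain, with a median of 4.58. Its lowest, median and highest values were 3.21, 4.03 and 10.26 in BXH, 3.00, 5.59 and 12.35 in BXD, 3.38, 4.84 and 11.64 in AXB, 3.38, 6.60 and 11.89 in BXA, and 3.05, 3.58 and 8.88 in the classical strains. All 5 groups overlapped near the floor and differed in how far their upper tails reached. Alb was over 1 log2 unit above its median on 39 arrays, the most of any member. Of the 12 member probe sets 11 were over 2 log2 units above their median on 5 arrays or more, against 0.945% of all probe sets, and the exception was Tat with 3 arrays.

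Ttr, which encodes transthyretin, the carrier of thyroid hormone and retinol-binding protein, was the one member whose top array was not CAST/EiJ on every probe set. By probe set 1455913_x_at it had 10.63 in BXD12/TyJ, 10.10 in BXD42/TyJ, 10.08 in AXB13/PgnJ and 9.97 in CAST/EiJ. By 1451580_a_at the order was 10.43 in CAST/EiJ, 10.09 in BXD12/TyJ and 9.69 in BXD42/TyJ. The deviations of the probe sets differed by -0.14 to 1.66 on the carrying arrays, so which strain is highest for Ttr depends on the probe set. Hpx encodes hemopexin, the plasma scavenger of heme. It had 11.10 in CAST/EiJ and 9.09 in BXD12/TyJ against a median of 3.42, and was over 1 log2 unit above it on 11 arrays.

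Of all members Apoa2 and Apoa1 followed Alb most closely, while Apoc3 followed it less closely than Ttr did. Apoa1 and Apoa2 encode the main proteins of high-density lipoprotein, and Apoc3 an inhibitor of lipoprotein lipase. Apoa2 reached 12.55 in CAST/EiJ and 12.23 in BXD12/TyJ, against a median of 4.77. Its lowest, median and highest values were 4.01, 4.77 and 9.26 in BXH, 4.0, 5.69 and 12.23 in BXD, 4.28, 5.22 and 11.89 in AXB, 4.06, 6.53 and 11.66 in BXA, and 3.93, 4.31 and 8.30 in the classical strains. As for Alb, the lower ends of the groups coincided. Apoa1 by 1419233_x_at had 12.40 in CAST/EiJ, 11.13 in BXD42/TyJ, 10.86 in AXB13/PgnJ and 10.04 in BXD12/TyJ, against a median of 3.70. BXD12/TyJ, second for most members, was thus below BXD42/TyJ, AXB13/PgnJ and other arrays in Apoa1, and by 1419232_a_at it had 9.65 against 10.54 in BXD42/TyJ and 10.66 in AXB13/PgnJ. Apoc3, the neighbour of Apoa1 on chromosome 9 in the order Apoa1, Apoc3, Apoa4 and Apoa5, had 11.23 in CAST/EiJ and 10.10 in BXD12/TyJ, against a median of 3.33. It was over 1 log2 unit above its median on 14 arrays, against 32 for Apoa1.

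Fgb encodes the beta chain of fibrinogen. It had 10.53 in CAST/EiJ, 8.86 in BXD42/TyJ and 8.69 in BXD12/TyJ, and a median of 3.24. In the classical strains Fgb ran from 2.84 to 3.63, with none over 1 log2 unit above the overall median.

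The urea cycle members were among the more restricted. Cps1, the mitochondrial enzyme of the first step, had 11.49 in CAST/EiJ, 8.69 in BXD12/TyJ and 8.38 in BXA8/PgnJ, against a median of 3.22. Its lowest, median and highest values were 2.82, 3.20 and 4.21 in BXH, 2.96, 3.23 and 8.69 in BXD, 2.89, 3.27 and 8.25 in AXB, 3.04, 3.65 and 8.38 in BXA, and 2.86, 3.04 and 3.60 in the classical strains. Arg1, the arginase that releases urea, had 11.78 in CAST/EiJ and 8.50 in BXD12/TyJ, against a median of 3.38. Tat encodes tyrosine aminotransferase, a glucocorticoid-induced enzyme of tyrosine breakdown. It had 11.51 in CAST/EiJ, against 6.57 in BXD12/TyJ, 5.75 in BXD42/TyJ, 5.36 in BXA13/PgnJ and a median of 3.65. Its value in CAST/EiJ stood apart from every other array. Over the other groups Tat ran from 3.35 to 4.05 in BXH, 3.24 to 6.57 in BXD, 3.44 to 5.21 in AXB, 3.35 to 5.36 in BXA and 3.30 to 4.45 in the classical strains.

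**Figure D2:**
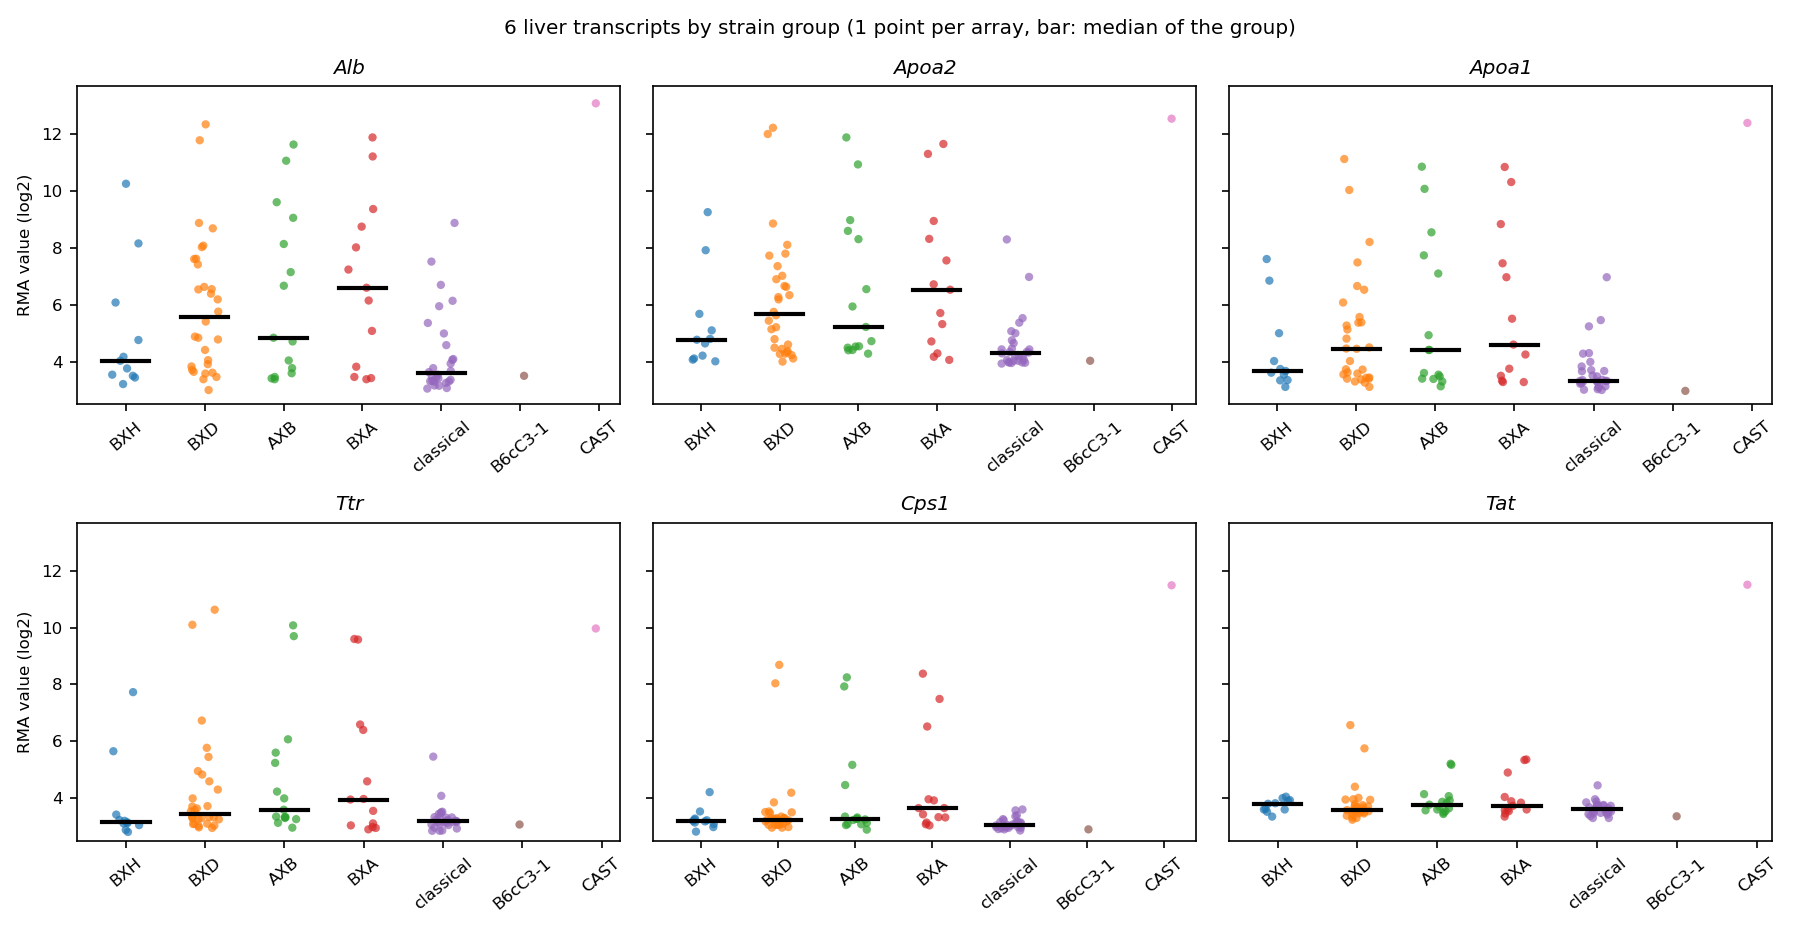
Log2 values of 6 members on each array by strain group, 1 point per array, with a bar at the median of groups of more than 1 array. Alb, Apoa2 and Apoa1 spread upward in all 4 recombinant panels, while Cps1 and Tat stay near 3 to 4 on most arrays and Tat reaches 11.51 in CAST/EiJ.

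The number of arrays on which a member was over 1 log2 unit above its median differed widely. It was 39 for Alb, 33 for Apoa2, 32 for Apoa1 and 22 for Ttr, each by the probe set used for the mean. The count fell to 14 for Apoc3, 11 for Hpx and Arg1, 10 for Fgb and Cps1 and 8 for Tat. Every array with any of the other 9 members over this level had Alb over it too. The lowest Alb value among those arrays was 5.76 for Apoa2, 6.08 for Apoa1, 7.42 for Ttr, 8.02 for Apoc3, 9.06 for Hpx, Fgb, Cps1 and Arg1, and 9.37 for Tat. Levels of different probe sets are not on a common scale, so this is no order of abundance.

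Members were correlated with Alb over 96 strains and families, after near-isogenic strains had been averaged, in 11 relations, 1 per probe set. Pearson's r was 0.98 for Apoa2 (Spearman's rho 0.92), 0.97 for Apoa1 by 1419233_x_at (rho 0.93) and 0.92 for Ttr by 1455913_x_at (rho 0.85). It was 0.85 for Apoc3 (rho 0.76), 0.83 for Hpx (rho 0.78), 0.82 for Fgb (rho 0.76), 0.81 for Cps1 (rho 0.84), 0.79 for Arg1 (rho 0.64) and 0.62 for Tat (rho 0.46). The second probe sets of Apoa1 and Ttr gave 0.94 (rho 0.90) and 0.87 (rho 0.78). Each r had a two-sided permutation p of 1e-05, the smallest that 100000 permutations can give, with an adjusted p of 1e-05. The same smallest p held for each rho (adjusted p 1.1e-05) but that of Tat, at 4e-05 (adjusted p 4e-05). The members were chosen with earlier results of these data known. These p-values are therefore a description and no independent evidence that the members vary together.

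Without CAST/EiJ and BXD12/TyJ, the families farthest from the median of Alb, r lay between 0.67 for Tat and 0.97 for Apoa2. Over the 85 families whose mean deviation was not over 2, r was 0.96 for Apoa2, 0.94 for Apoa1 by 1419233_x_at, 0.86 for Ttr by 1455913_x_at, 0.82 for Cps1, 0.55 for Arg1 and 0.26 for Tat. The co-variation of most members thus extended below the level used to say that an array carries them. That level rests on the members' own values, so the r of these families are given as a description. The AXB19 family is among them, with the carrying AXB19/PgnJ array averaged in. Within the 41 families of the lower titles r was 0.97 for Apoa2, 0.73 for Cps1 and 0.67 for Tat, and within the 55 of the higher titles 0.98, 0.84 and 0.74 in the same order of genes. The rank correlation within the lower titles was weaker for Arg1, with rho 0.27 beside r 0.69, and for Tat, with rho 0.37. The points share their arrays and normalisation, and Cps1 and Tat bend upward only at high Alb, so r does not describe the shape of their relation.

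**Figure D3:**
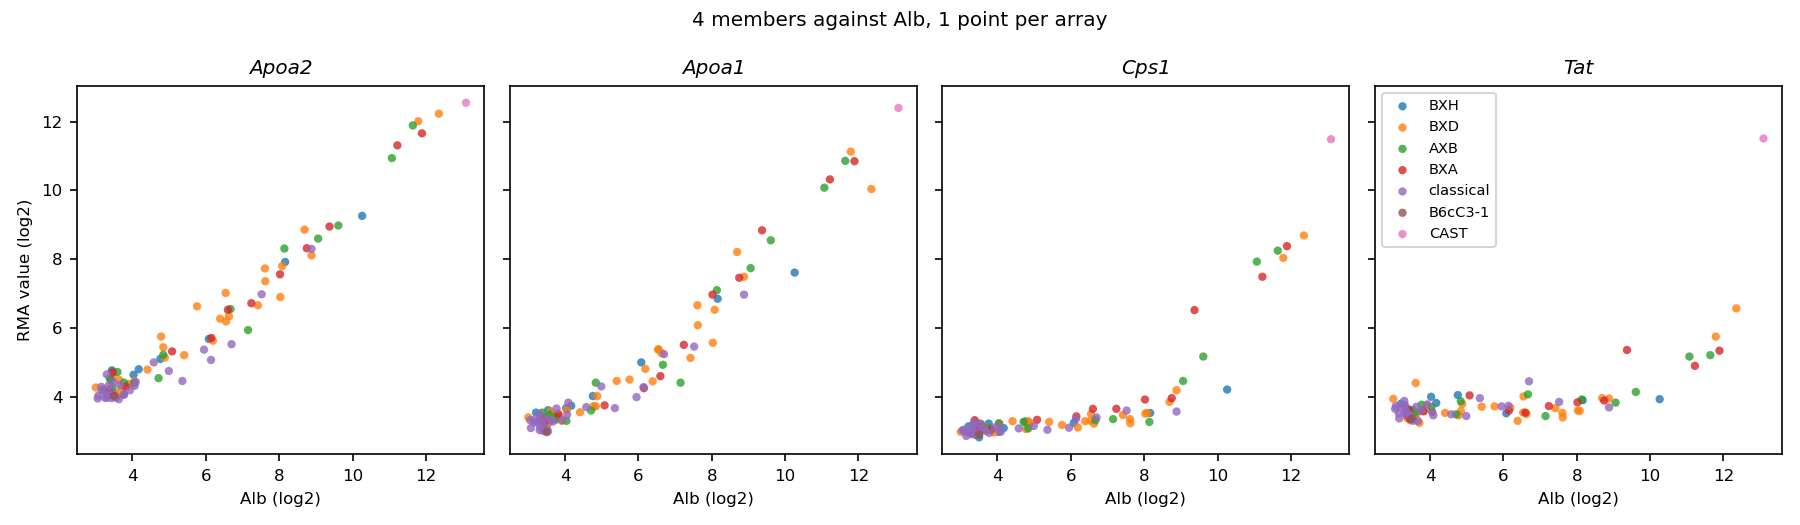
Log2 values of Apoa2, Apoa1, Cps1 and Tat (vertical axes) against Alb (horizontal axis), 1 point per array, coloured by group. Apoa2 rises along a near-straight line, Apoa1 dips in BXD12/TyJ at 10.04, Cps1 leaves the floor at Alb values near 9, and Tat leaves it clearly on few arrays.

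Proportions of the members to each other were compared through the excess of each over the median array, on the linear scale, as a share of its excess on a chosen array. Arrays with the same proportions would have equal shares for all members, provided that each probe set responds alike on every array. That was not tested, and CAST/EiJ is a wild-derived strain. Its Alb value of 13.09 also lies near 13.695, the highest value of any probe set. Shares were first taken against CAST/EiJ, set to 100%. In BXD12/TyJ they were 158% for Ttr, 80.3% for Apoa2, 60.0% for Alb, 45.6% for Apoc3, 27.5% for Fgb, 24.5% for Hpx, 19.3% for Apoa1, 14.045% for Cps1, 10.04% for Arg1 and 2.84% for Tat. The highest was 55.7 times the lowest. The corresponding ratio was 77.5 in BXD42/TyJ, 128 in AXB13/PgnJ, 79.5 in BXA8/PgnJ, 129 in BXA16/PgnJ and 102 in AXB10/PgnJ, and in each of these Tat was lowest and Ttr, by 1455913_x_at, highest. By its other probe set the share of Ttr was below that of Apoa2 on all 6 arrays, for example 78.7% in BXD12/TyJ and 59.2% in BXD42/TyJ. Without Tat it was 15.7 in BXD12/TyJ and between 11.03 and 16.7 in those 5 arrays.

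With BXD12/TyJ set to 100% the shares of the 5 next arrays lay closer together. In BXD42/TyJ they were 67.4% for Alb, 69.3% for Ttr, 77.1% for Hpx, 85.5% for Apoa2, 66.1% for Apoc3, 62.8% for Cps1, 92.1% for Arg1 and 113% for Fgb, with Apoa1 above them at 214% and Tat below at 49.8%. The highest share was 4.30 times the lowest there, 5.98 times in AXB13/PgnJ, 5.23 in BXA8/PgnJ, 5.79 in BXA16/PgnJ and 4.02 in AXB10/PgnJ. Apoa1 had the highest share in all 5 of these arrays, from 103% to 214%, which restates its low level in BXD12/TyJ. In the arrays with less of the transcripts, over the members that were more than 1 log2 unit above the median, the ratio was 17.7 in BXA13/PgnJ, 5.26 in BXH14/TyJ, 19.7 in AXB19/PgnJ, 6.13 in AXB4/PgnJ and 8.35 in BXD1/TyJ. Against CAST/EiJ it was 8.44, 46.0, 27.4, 13.6 and 6.51 in the same order, so in BXA13/PgnJ and BXD1/TyJ the shares lay closer together against CAST/EiJ.

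The disagreement between probe sets of 1 gene was set beside these spreads. With BXD12/TyJ set to 100%, the pair for Apoa1 differed by 1.05 to 1.15 times in the 5 arrays from BXD42/TyJ to AXB10/PgnJ, and the pair for Ttr by 1.09 to 1.63 times. The spread over the members in those arrays was wider than either pair. It takes the highest and lowest of all members, while a pair holds single values, so it tends to be wider in any case. The comparison therefore cannot show that members differ by more than probe sets do. Against CAST/EiJ the Ttr pair differed by 2.01 times in BXD12/TyJ and by 3.28 times in AXB13/PgnJ, where the spread over members was 55.7 and 128 times. With no second array of any strain, the spread of these shares between mice of a strain is unknown.

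**Figure D4:**
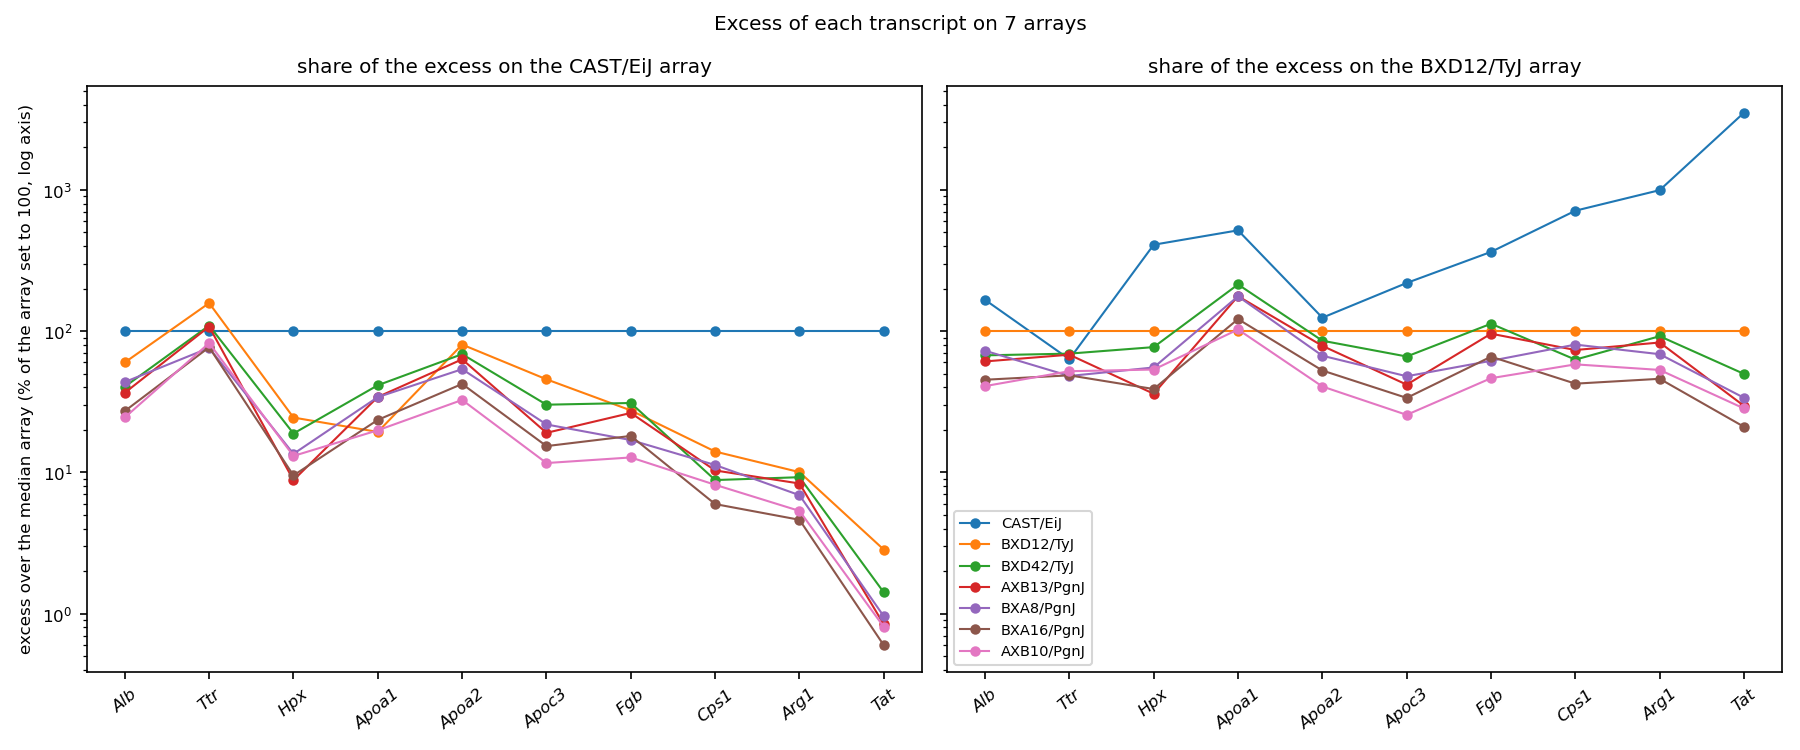
Linear excess of each member over the median array on the 7 arrays with the highest mean deviation, as a percentage of the excess on the CAST/EiJ array (left) and on the BXD12/TyJ array (right), on log axes. On the left the lines of the other 6 arrays run together, from Ttr at 76.1 to 158% down to Tat at 0.597 to 2.84%; on the right CAST/EiJ departs from them, with Tat at 3522%.

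CAST/EiJ and BXD12/TyJ, the arrays with the most of the members, were set against each other without a test, since each is a single array. The difference CAST/EiJ minus BXD12/TyJ was 4.94 log2 units for Tat, 3.28 for Arg1, 2.80 for Cps1, 2.36 and 2.61 for the probe sets of Apoa1, 2.01 for Hpx and 1.84 for Fgb. It was 1.13 for Apoc3, 0.73 for Alb, 0.31 for Apoa2 and 0.34 and -0.66 for the probe sets of Ttr. Tat, Arg1 and Cps1 thus differed most, with the plasma protein members Apoa1, Hpx and Fgb next and Alb, Apoa2 and Ttr least. CAST/EiJ was picked because it had the most of these members, so nothing is read from the sign of the differences. CAST/EiJ was the highest of the 99 arrays for 11 of the 12 member probe sets, as it was for 6.03% of all probe sets. On the log2 scale the deviation of Tat minus that of Alb was -0.65 in CAST/EiJ, against -4.86 in BXD12/TyJ and -5.12 in BXD42/TyJ.

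Near-isogenic strains allow a view of arrays with almost the same genome. AXB19/PgnJ, AXB19a/PgnJ and AXB19b/PgnJ had Alb at 9.61, 8.14 and 3.38. Apoa2 was 8.98, 8.31 and 4.53 in the same order, and Apoa1 8.55, 7.10 and 3.54. The first pair lay far above the median array and AXB19b/PgnJ near the floor. The pair BXD24/TyJ and BXD24/TyJ-Cep290<rd16>/J had Alb at 3.64 and 3.46, both near the floor. Among the parents of the panels Alb was 3.31 in C3H/HeJ, 4.09 in DBA/2J, 3.32 in A/J and 3.36 in C57BL/6J, so the levels of the carrying BXH, BXD, AXB and BXA strains lay above those of either parent.

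Panels were compared with limma over all 22327 probe sets, with families as units, and the threshold for a call was 0.05 after Benjamini-Hochberg adjustment. BXD against AXB and BXA contrasts the DBA/2J and A/J parents, since C57BL/6J is common to all. Of the 12 member probe sets 0 were called, nor had any an unadjusted p under 0.05, where 7.48% of all probe sets were called and 20.1% had such an unadjusted p. Alb averaged 6.05 ± 2.43 in BXD (SD, n = 29) and 6.496 ± 2.87 in AXB and BXA (SD, n = 26). The difference of -0.45 had a 95% interval from -1.83 to 0.94 (limma adjusted p = 0.795). Within the lower and the upper title numbers of these arrays it was -1.31 and 0.15.

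AXB against BXA compares reciprocal panels of the same parents. Here limma called 0 of the 12 member probe sets and 0% of all, with an unadjusted p under 0.05 for 0 of the 12 and for 2008, or 8.99%, of all probe sets. Alb averaged 6.19 ± 2.89 in AXB and 6.80 ± 2.94 in BXA (SD, n = 13 each), and the interval of the difference ran from -2.81 to 1.58. An interval this wide does not show that the panels are alike.

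BXH against the classical strains gave 0 calls among the members, against 0.103% of all probe sets, and 0 of 12 had an unadjusted p under 0.05 in limma, against 8.64% of all. Alb averaged 4.99 ± 2.28 in BXH (SD, n = 11) and 4.26 ± 1.499 in the classical strains (SD, n = 28), a difference of 0.73 with an interval from -0.48 to 1.93 (limma adjusted p = 0.796). BXH against BXD also gave 0 of 12, called or at an unadjusted p under 0.05, where limma called 5.07% of all probe sets and 18.3% had such an unadjusted p. Alb averaged 4.99 ± 2.28 in BXH (SD, n = 11) and 6.05 ± 2.43 in BXD (SD, n = 29), and the difference of -1.06 had an interval from -2.70 to 0.58 (limma adjusted p = 0.550). The titles of BXH and BXD do not overlap, so panel and title range cannot be told apart there.

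A further comparison, of BXD, AXB and BXA together against the classical strains, was added after the values had been seen, and the BXD, AXB and BXA arrays all have the higher titles. It called 6 of the 12 member probe sets, all higher in the recombinant panels, where 6.56% of all probe sets were called higher and 14% called in either direction. An unadjusted p under 0.05 was reached by 11 of the 12, against 26.9% of all. Alb averaged 6.26 ± 2.63 in the recombinant strains (SD, n = 55) and 4.26 ± 1.499 in the classical strains (SD, n = 28), a difference of 2.00 (SE 0.53, limma adjusted p = 0.00514). Apoa2 averaged 6.42 ± 2.32 and 4.60 ± 0.98 in the same order of groups, a difference of 1.82 (SE 0.45, limma adjusted p = 0.00263). Apoa1 was higher by 1.61 and 1.40 with its probe sets (limma adjusted p = 0.00879 and 0.0106), and Ttr by 1.24 and 0.94 (limma adjusted p = 0.0282 and 0.0451). Cps1, at a difference of 0.81, Apoc3 at 0.89, Fgb at 0.74, Hpx at 0.70, Arg1 at 0.66 and Tat at 0.25 did not pass, with limma adjusted p from 0.0545 to 0.192. Over the 12 probe sets the median difference was 0.91, against 0.0034 over all. With the carrying arrays left out, 46 recombinant strains and families against 28 classical strains, the differences were 1.08 for Alb and 0.96 for Apoa2. The carrying arrays were chosen by the values of the members, and none of them is a classical strain, so these differences are given without a test. Both Ttr calls were lost with the Gapdh 3′ minus 5′ difference as a covariate (limma adjusted p = 0.0785 and 0.0566).

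Other products of hepatocytes were high on the 7 arrays with the most of the members. On the other 5 carrying arrays the list means were only slightly raised, though some genes stood well above their medians. There Bhmt, with a median of 3.44, had 6.44 to 7.39, and Apoh, with a median of 3.61, had 5.50 to 6.26. On those 5 arrays only 2 to 4 of the 26 hepatocyte enzymes were over 2 log2 units above their median. The lists described here were written with earlier results of these data known. Of 41 other liver plasma protein genes 34 were on the array, and their mean deviation ran from 0.49 to 4.61 on the 12 carrying arrays and from -0.24 to 0.42 on the 87 others. In CAST/EiJ 29 of the 34 were over 2 log2 units above their median, against 1.53% of all probe sets, and in BXD12/TyJ 21, against 0.699%. The number was 19 to 22 on the next 5 arrays, and then 4 in BXA13/PgnJ, 1 in BXH14/TyJ, AXB19/PgnJ and BXD1/TyJ and 0 in AXB4/PgnJ. Apoh had 10.91 in CAST/EiJ and 8.87 in BXD12/TyJ, and Rbp4, the retinol carrier, 11.27 and 8.71. Apoa4, which lies beside Apoc3 and is made by intestine as well as liver, had 10.71 in CAST/EiJ, against 4.97 in BXD12/TyJ, 3.95 in BXD42/TyJ and a median of 3.43.

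Other genes of the urea cycle and ammonia metabolism, 8 of 10 on the array, had a mean deviation from 0.08 to 2.67 on the carrying arrays and from -0.13 to 0.13 elsewhere. Only 4 of the 8 were over 2 log2 units above their median on any array. The number was 4 in CAST/EiJ, against 1.53% of all probe sets, and 3 in BXD12/TyJ, against 0.699%. It was 2 in BXD42/TyJ and 1 in each of AXB13/PgnJ, BXA8/PgnJ, BXA16/PgnJ and AXB10/PgnJ. Ass1, the argininosuccinate synthase, had 10.84 in CAST/EiJ, 9.03 in BXD12/TyJ and 8.06 in BXD42/TyJ, against a median of 3.83. Asl, the lyase that follows it, had 9.41, 5.82 and 5.83 on the same arrays. Otc, ornithine transcarbamylase, reached 6.18 in CAST/EiJ and 5.87 in BXD12/TyJ, a difference of 0.31, unlike the 2.80 of Cps1.

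Hepatocyte enzymes, 26 of 30 on the array, had means from 0.55 to 4.21 on the carrying arrays and from -0.22 to 0.51 on the others. Most stood highest in CAST/EiJ, 17 of the 26. Cyp3a11, a drug-metabolising cytochrome, was lower in CAST/EiJ at 7.39 than in AXB13/PgnJ at 10.22, BXD42/TyJ at 9.91 or BXD12/TyJ at 9.05, while Mat1a, a methionine adenosyltransferase, was 10.30, 6.29, 7.37 and 7.22 in the same order. Hepatocyte transcription factors, 12 of 13 on the array, moved little on average. Their mean was at most 0.86, in CAST/EiJ, and at most 0.35 on the other carrying arrays. In CAST/EiJ Creb3l3 had 7.02 against a median of 3.62, and Hnf4a 6.19 against a median of 3.24. Several of the other factors, like Hnf4a, had medians near 3, close to the floor, where small amounts are compressed. Whether the floor had a part in the small mean of the list was not tested. Bile duct, stellate and sinusoid cell lists had means between -0.13 and 0.45 on the carrying arrays.

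Markers of other organs were set beside the members. Kidney, exocrine pancreas, thyroid and choroid plexus lists had means between -0.13 and 0.25 on the carrying arrays, and the intestine list at most 0.60, in CAST/EiJ, where Fabp2 had 5.50. These lists stayed near their medians. Lung and airway genes, 9 of 11 on the array, had a mean over 2 on 4 of the 12 carrying arrays, at 4.4 in CAST/EiJ, 3.14 in AXB13/PgnJ, 3.00 in BXH14/TyJ and 2.89 in AXB10/PgnJ, and on 21 of the 87 others. Sftpc, the surfactant protein of alveolar cells, had 10.34 in CAST/EiJ, against 3.11 in BXD12/TyJ. The airway genes of the list were raised in BXD12/TyJ, with Scgb1a1 at 8.14 and Bpifa1 at 9.55, against medians of 4.01 and 3.94. Its lung list mean was 1.76, with 4 of the 9 genes over 2 log2 units above their median. BXA16/PgnJ had a mean of 1.83 and AXB4/PgnJ 1.42. Fast skeletal muscle genes, 10 of 10, had means over 2 in CAST/EiJ at 5.57 and AXB13/PgnJ at 2.76 and on 7 others; Tnnc2 had 11.95 in CAST/EiJ, 9.36 in AXB13/PgnJ and 3.36 in BXD12/TyJ.

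Thymus genes, 4 of 5, averaged 4.34 in AXB19/PgnJ, where Rag1 had 9.47, and squamous epithelium genes, 7 of 8, 2.40 in AXB13/PgnJ. Adipocyte genes, 4 of 7, lay between -0.94 and 1.51 and macrophage genes, 9 of 9, between -0.55 and 0.31 on the carrying arrays. Brown fat genes, 4 of 4, lay between -0.66 and 0.93 and erythroid genes, 4 of 7, between -0.83 and 1.20 there. The cardiac list, 9 of 10, lay between -0.26 and 0.31. The part of tissue other than heart in the values of the members was not tested. On BXD42/TyJ and BXA8/PgnJ, where the members were at 5.77 and 5.44, the lung list was at 0.12 and -0.20 and the fast muscle list at -0.04 and 0.00.

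**Figure D5:**
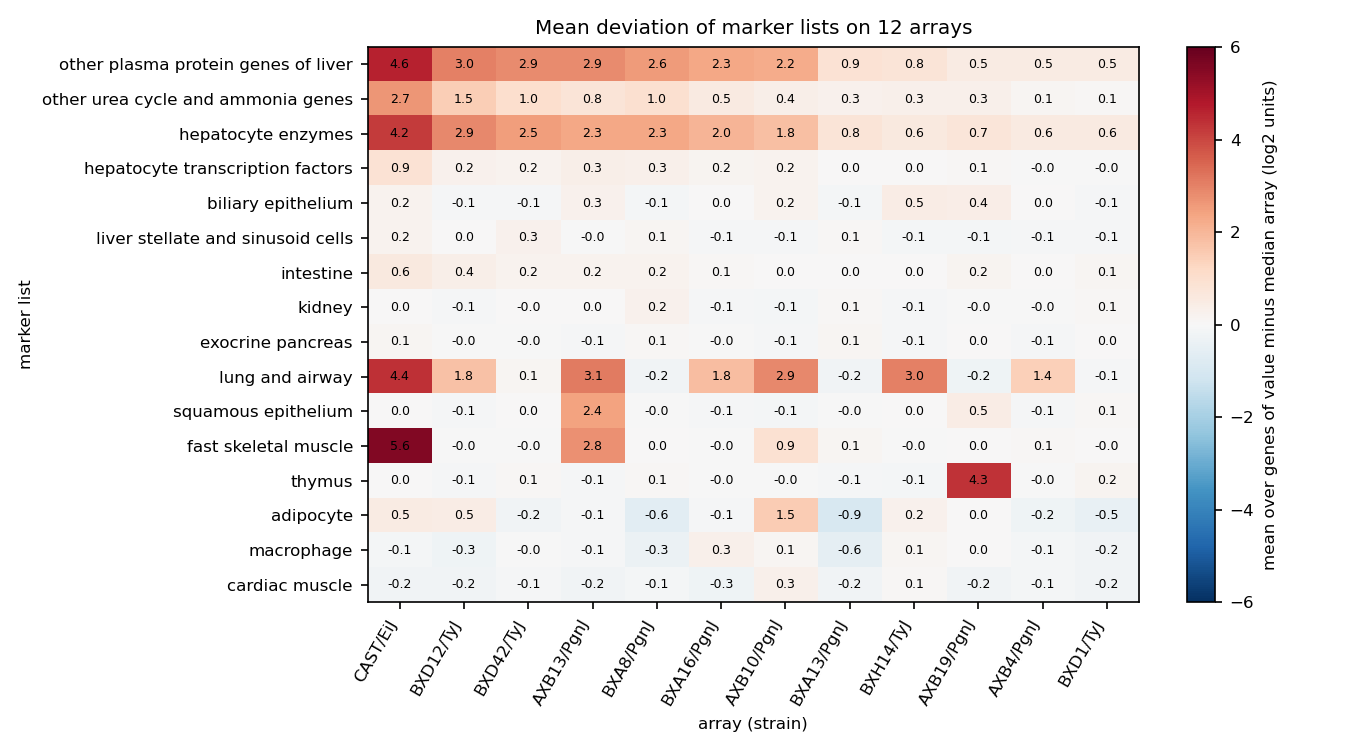
Mean deviation (log2 units, colour and number) of 16 marker lists on the 12 carrying arrays, ordered by falling mean deviation of the members. Plasma protein and hepatocyte enzyme lists fall from left to right with the members, whereas lung, fast muscle, squamous and thymus lists are high on some of these arrays only.

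The genes whose pattern over the 99 arrays was most like the mean deviation of the members were ranked by Pearson's r of the brightest probe set of each gene, as a description. They were Apoh (r = 0.984), Fabp1 (0.978), Bhmt (0.977), Hpd (0.975), Pzp (0.970), Mup3 (0.968), Cyp4a10 (0.967), Serpinc1 (0.958), Ambp (0.955) and Plg (0.954). Without the 2 highest arrays the values lay between 0.932 and 0.982. Of 11715 genes with a single symbol, the members left out, 81 had r over 0.8 and 35 over 0.9. Mup3, of the major urinary proteins that liver secretes, had 10.81 in CAST/EiJ and 8.38 in BXD12/TyJ, but near-identical copies of this family may share its probe set. Bhmt, the betaine-homocysteine methyltransferase, had 10.83 in BXD42/TyJ, above the 10.30 of CAST/EiJ.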

How the data were processed

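Heart RNA of 99 strains was measured on HT_MG-430A arrays, per the labels. The deposited file holds the authors' log2 values of 22416 probe sets, including 89 controls. Per the submitters' processing notes the tools were GCOS and RMA, without versions. RMA removes background, makes the arrays share a distribution and combines the probes of a set in log2 units, so a value near 3 lies close to the floor and small amounts are compressed. The genome build of the array design is not given here. Scanner files were not analysed here, and background on each array is unknown.

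Strains were grouped by name. The age label runs from 16 to 113 weeks against 16 weeks in the protocol of the labels and was not used. The platform annotation gave 1 symbol to 17783 probe sets, several to 284 and none here to 4260, besides the controls. All 10 members matched the RefSeq genes by identifier. The near-isogenic AXB19 and BXD24 strains entered tests and correlations as 1 mean per family.

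Tests used lmFit and eBayes of limma 3.58.1 under R 4.3.3 (no covariates, no filter on dim probe sets, only the groups compared in each fit), with Benjamini-Hochberg adjustment over 22327 probe sets. Python 3.11.15, numpy 2.4.6, scipy 1.17.1, pandas 2.3.3, statsmodels 0.14.6 and matplotlib 3.10.9 were also used, with the R package data.table (version 1.17.8). Correlations were tested with 100000 permutations, two-sided. The limma step was tested on simulated data with normally distributed noise. The members lie near the floor on most arrays and far above it on few, so that run does not bear on calls among them. The members, the marker lists and the level of 2 log2 units were chosen with earlier results of these data known. Named genes were the 10 members, up to 4 genes of widest range per list, the 10 genes most like the members, and Myl2 and Gapdh as checks. Alternatives were another probe set per gene, filter, variance model, baseline and level, title numbers as a block, and leaving out carrying arrays.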

Additional observations from a re-analysis of the deposited data

Results flagged for a closer look

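The CAST/EiJ array belongs to no comparison of groups, being the only one of its strain, and it carried the strongest signal of the members: a mean deviation of 7.90 log2 units over the 10 genes, against 1.53 at most among the 28 classical strains. No test of single outlying arrays was made.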

How the results depend on the processing

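No paired analysis was possible because the labels give no replicate numbers that groups share. The 4 planned panel comparisons gave 0 called members in limma under every alternative run and 0 by the permutation test at an unadjusted p under 0.05. For BXD, AXB and BXA minus classical the count of 6 became 11 by the permutation test at an unadjusted p, and lay between 4 and 8 otherwise. No count is given for leaving out the carrying arrays, since the members' own values chose them. The 12 carrying arrays became 23 at a level of 1, 8 at a level of 3, 9 with the median over genes and 11 with the brightest probe set. The ratio of highest to lowest share in BXD42/TyJ, 77.5, became 48.6 with the brightest probe set, 4.30 with BXD12/TyJ set to 100% and 75.5 with the 25th percentile as the baseline. All 44 values of Pearson's r with Alb in subsets kept their sign and a permutation p under 0.05. For the 85 families without the carrying arrays that p is no test, since the members' own values chose the subset. Rank correlations in subsets were not tested, and the lowest were 0.25 for Tat over those 85 families and 0.27 for Arg1 within the lower titles. Why these values moved was not tested, beyond the smaller sets of arrays or the changed divisor.

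Of the member differences under alternatives, 431 kept direction and call, 8 gained a call, 7 lost it and 36 changed sign, all of these uncalled before and after. The runs without the carrying arrays are among them, and the members' own values chose those arrays, so these counts are a description. Without the carrying arrays BXD minus AXB and BXA became 0.32 for Alb, 0.04 for Ttr by 1455913_x_at, 0.16 and 0.25 for the Apoa1 probe sets, 0.26 for Apoa2, 0.06 for Apoc3 and 0.03 for Arg1. AXB minus BXA became 0.02 for Tat, BXH minus classical -0.02 for Hpx, -0.0033 for Fgb and -0.02 for Arg1, and BXH minus BXD 0.10 for Tat. In the upper title numbers alone BXD minus AXB and BXA became 0.15 for Alb, 0.00084 and 0.14 for the Ttr probe sets, 0.10 for Hpx, 0.06 and 0.13 for Apoa1, 0.20 for Apoa2, 0.15 for Apoc3, 0.12 for Arg1 and 0.03 for Tat. In the lower title numbers alone AXB minus BXA became 0.07 for Alb, 0.74 for both Ttr probe sets, 0.58 for Hpx, 0.41 and 0.26 for Apoa1, 0.38 for Apoa2, 0.83 for Apoc3, 0.48 for Fgb, 0.44 for Cps1, 0.68 for Arg1 and 0.18 for Tat. With title number as a block it became 0.05 for Ttr by 1455913_x_at and 0.03 for Apoc3. Title ranges, the comparison with the classical strains and the correlation subsets were chosen after seeing the data.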
